A study of Drosophila melanogaster with 2 samples.

Results

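The intergenic binding sites of the Drosophila protein CG4730 on the large autosomal arms were taken from chromatin immunoprecipitation sequencing (ChIP-seq) of whole embryos. A site was kept when the summit of a peak in the pooled, thresholded peak set lay on arm 2L, 2R, 3L or 3R, inside no annotated gene and more than 500 bp from every annotated transcript start. This rule kept 463 peaks, which were 16.2% of the 2852 pooled autosomal peaks (95% exact interval 14.9 to 17.6%) and 13.0% of the 3571 pooled peaks in all. The other autosomal peaks were 1285 promoter peaks, with a summit within 500 bp of a start, and 1104 peaks inside genes. All samples belonged to 1 group of 2 biological replicates, drawn from embryos aged 0 to 24 hours of the strain CG4730-GFP, whose insertion carries CG4730 fused to eGFP. The immunoprecipitation used an antibody to GFP, both replicates list the same donor strain, and chromatin was sonicated to 200 to 800 bp. Whole embryos mix all tissues and stages of that day, so a strong peak in few cells and a weak one in many cannot be told apart. There was no second condition to compare with, and the control library was not analysed here, so the values below describe where the tagged protein was found and how far the replicates shared it.

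ChIP-seq recovers DNA fragments crosslinked to a protein, and a peak's summit is the position where fragments pile up highest. Intergenic sites of this kind commonly lie in enhancers, insulators or silencer elements such as Polycomb response elements, which act on genes from a distance, although a peak alone does not say which. CG4730 is annotated in RefSeq as an uncharacterized protein. Its longest RefSeq protein has 392 residues, in which 6 matches to the zinc finger pattern of paired cysteines and histidines were counted. In flies, insulator proteins such as CTCF also bind DNA through zinc fingers.

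The strongest intergenic sites differed in base composition. Windows of 101 bp centred on the summit, read on the plus strand of dm6, are shown for the 6 strongest reproducible sites on arms 2L, 3L and 3R that held none of the GC-rich motifs described next. Capitals mark every run of 8 or more A or T bases. Each is named by the genes on its left and right.
lncRNA:CR45641 and lncRNA:CR45643, chr3R:16222448-16222548: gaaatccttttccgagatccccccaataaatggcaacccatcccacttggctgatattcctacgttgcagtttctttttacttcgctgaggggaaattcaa
lncRNA:CR44603 and lncRNA:CR45695, chr2L:1638735-1638835: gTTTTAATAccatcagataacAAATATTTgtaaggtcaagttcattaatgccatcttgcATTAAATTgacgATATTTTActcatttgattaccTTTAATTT
COX7AL2 and CG31668, chr2L:2202356-2202456: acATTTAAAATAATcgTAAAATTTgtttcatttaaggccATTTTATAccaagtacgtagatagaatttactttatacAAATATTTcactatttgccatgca
lncRNA:CR44603 and lncRNA:CR45695, chr2L:1632804-1632904: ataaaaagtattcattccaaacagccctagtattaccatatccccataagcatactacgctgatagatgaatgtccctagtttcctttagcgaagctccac
tRNA:Ser-GCT-2-2 and foxo, chr3R:14053546-14053646: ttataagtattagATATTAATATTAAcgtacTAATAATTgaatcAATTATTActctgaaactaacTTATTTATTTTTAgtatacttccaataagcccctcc
tRNA:Ile-TAT-1-2 and CG13898, chr3L:781316-781416: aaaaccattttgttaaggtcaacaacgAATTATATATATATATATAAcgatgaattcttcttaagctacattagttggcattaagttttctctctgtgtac
The window of the strongest site, between lncRNA:CR45641 and lncRNA:CR45643, held no such run and was 55.4% A or T. The window beside foxo was 77.2% A or T, and the window beside tRNA:Ile-TAT-1-2 held a run of 20 bases.

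A smaller set of sites carried a GC-rich motif. In the next windows capitals mark matches, on either strand, to the CTCF core AGNNGGCGC, to AGATGGCG or to GGCGCC. The last of these motifs was chosen after the sequences had been seen.
C15 and sp3, chr3R:21520306-21520406: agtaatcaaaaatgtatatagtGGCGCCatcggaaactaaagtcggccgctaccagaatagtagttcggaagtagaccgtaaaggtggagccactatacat
soti and cv-c, chr3R:14391392-14391492: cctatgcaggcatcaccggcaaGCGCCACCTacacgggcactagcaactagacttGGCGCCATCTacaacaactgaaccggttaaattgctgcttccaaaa
lncRNA:CR45303 and lncRNA:CR45693, chr2L:14502754-14502854: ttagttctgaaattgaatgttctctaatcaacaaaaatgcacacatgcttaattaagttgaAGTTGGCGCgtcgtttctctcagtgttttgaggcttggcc
jp and lncRNA:CR44149, chr2L:9567444-9567544: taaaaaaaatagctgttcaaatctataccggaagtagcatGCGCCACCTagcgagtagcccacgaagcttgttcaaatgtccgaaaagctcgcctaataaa
Sid and snu, chr3R:28672333-28672433: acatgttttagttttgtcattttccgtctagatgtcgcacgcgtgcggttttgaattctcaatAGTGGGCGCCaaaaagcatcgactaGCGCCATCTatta
Sox21a and Sox21b, chr3L:14111568-14111668: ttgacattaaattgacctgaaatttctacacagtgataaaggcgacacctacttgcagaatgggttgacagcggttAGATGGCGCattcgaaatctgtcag
The window between soti and cv-c held all 3 motifs and was 47.5% A or T. The window between Sox21a and Sox21b, which encode Sox transcription factors, held the CTCF core and AGATGGCG as a single overlapping stretch.

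A further 8-base sequence, CACTGAGA, was also chosen after the data were seen. Capitals mark it, on either strand, in these windows.
Cad89D and Gr89a, chr3R:16497523-16497623: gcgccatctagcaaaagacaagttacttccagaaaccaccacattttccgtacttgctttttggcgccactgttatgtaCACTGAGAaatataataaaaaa
lncRNA:CR44853 and lncRNA:CR44854, chr2L:14554060-14554160: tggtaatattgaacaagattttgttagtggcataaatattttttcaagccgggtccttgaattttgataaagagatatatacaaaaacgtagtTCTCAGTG
The window between Cad89D and Gr89a also held the CTCF core, AGATGGCG and GGCGCC, printed here in lower case. The strongest site with CACTGAGA, between lncRNA:CR45303 and lncRNA:CR45693, is printed above with that sequence in lower case.

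The signal, the value that the authors deposited for each peak, spanned a wide range among the intergenic sites. In the pooled set it ran from 2.86 to 1289 with a median of 98.4, and the middle 50% of sites lay between 73.4 and 143. The 20 strongest sites that were found in both replicates ran from 329 to 1289. Promoter peaks had a higher median, 125, and peaks inside genes a similar one, 97.8. The median of the intergenic sites was therefore 0.788 of that of promoter peaks, and in the replicates' own peak sets the same ratio was 0.823 and 0.840. Of the 300 strongest pooled peaks of the series, 20 were intergenic autosomal sites, 169 were autosomal promoter peaks and 56 lay inside autosomal genes.

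Of the 463 intergenic sites, 267 overlapped a peak of replicate 1's own thresholded set and 269 one of replicate 2's. Both sets held 202 sites, or 43.6% (95% exact interval 39.1 to 48.3%), against 48.2% of all autosomal pooled peaks. Neither set held 129 sites, or 27.9%, against 23.5% of all autosomal pooled peaks. The conservative pooled set held 367 sites, or 79.3%, against 82.3%. Promoter peaks were found in both own sets more often, 55.5% (52.7 to 58.2%), and peaks inside genes about as often, 41.6% (38.6 to 44.5%). Intervals cover counting error only, and the sites are not independent samples.

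Support followed signal closely. All 93 sites of the strongest quintile, with a pooled signal of 167 or more, were in both own sets, and 78.3% of the second quintile were. The share was 31.2% in the third quintile, 2.17% in the fourth and 6.45% in the weakest. Of the weakest quintile, 0 of the 77 sites with a signal of 30 or more were in both own sets. Pooled signal and the own sets come from the same 2 libraries, so this is a description of one ranking and not a second measurement.

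**Figure D1:**
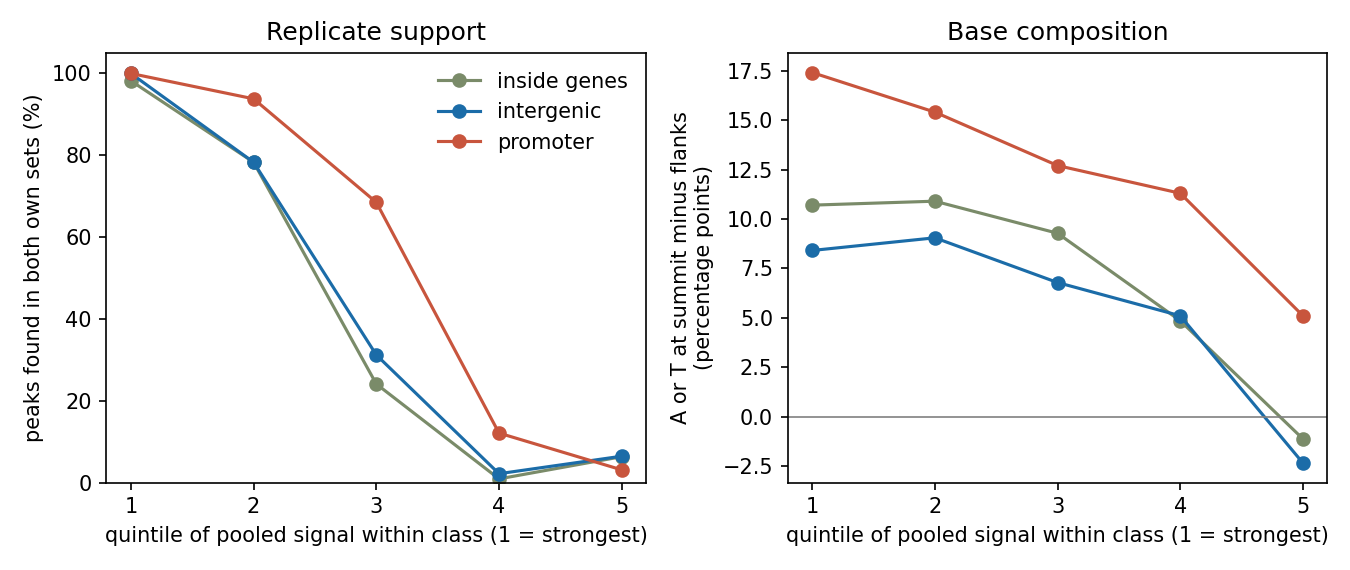
Left, the percentage of peaks found in both replicates' own sets, and right, the percentage of A or T bases at summits minus that of the flanks, in percentage points, for quintiles of pooled signal within each class (1 is the strongest quintile). Intergenic sites (blue) fell from 100% to 6.45% in replicate support and from 8.41 to -2.33 points in A or T content.

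Each replicate's full ranked list, before thresholding, gave a value for most sites: 453 in replicate 1 and 461 in replicate 2. The peak with the nearest summit was used, so sites that overlap each other can carry the same value. Such sites were still counted separately in the values below. The median was 51.2 in replicate 1, with a range of 2.26 to 652, and 52.2 in replicate 2, with a range of 3.64 to 629. Over the 451 sites with both values the median log2 ratio of replicate 2 to replicate 1 was 0.017 with an SD of 0.70. Signal was higher in replicate 2 at 231 sites and higher in replicate 1 at 220. A difference of more than 2-fold was seen at 36 sites (7.98%), 20 of them higher in replicate 1, and at 0 of the 100 strongest. The share was the same among the 1241 promoter peaks with both values, 7.98%, and 7.44% among 1075 peaks inside genes. Spearman's rho between the replicates was 0.667 over these 451 sites, 0.808 over promoter peaks and 0.681 over peaks inside genes, as a description of sites that share the same 2 libraries.

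**Figure D2:**
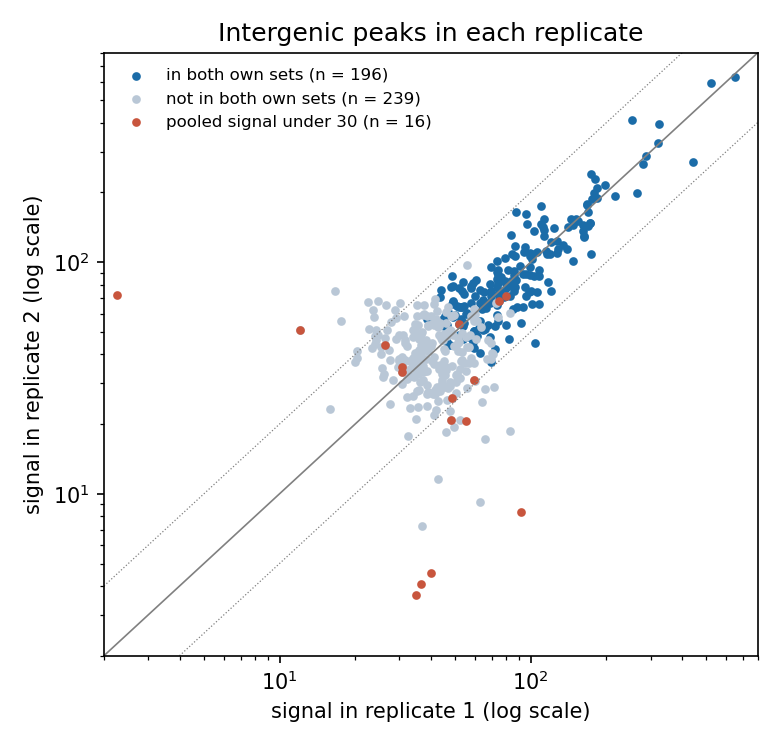
Signal of each intergenic site in replicate 1 against replicate 2, on log axes, with the line of equality and dotted lines at a 2-fold difference. The 100 strongest sites lie within the dotted lines, and 36 of the weaker ones lie outside them.

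A group of 16 sites stood apart at the low end. Their pooled signals ran from 2.86 to 25.6, and the next weakest site had 47.6. Each of the 16 overlapped a stronger kept peak whose summit lay 199 to 232 bp away and whose signal was 54.0 to 155, and 15 of those stronger peaks were intergenic sites themselves. At these 16 summits 49.3% of bases were A or T, -8.17 points relative to their flanks. Without them 447 sites remained, of which 43.8% were in both own sets. Among promoter peaks 34, and among peaks inside genes 38, had signals under 30. In all, 35 intergenic sites (7.56%) overlapped another kept peak.

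The strongest site lay 897 bp from the start of lncRNA:CR45643 on arm 3R, at summit position 16222498. Its signal was 652 in replicate 1 and 629 in replicate 2, a mean of 641 ± 16.4 (SD, n = 2), and 1289 in the pooled set. It was rank 13 among all pooled peaks. The second, on arm 2R at 13035345, stood 27434 bp from Su(z)2 and 9350 bp from CG13323, with 522 in replicate 1 and 594 in replicate 2 (558 ± 50.8). Su(z)2 encodes a Polycomb group protein. The third lay between C15, a homeobox gene, and sp3, with 323 and 395 (359 ± 50.8).

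Another Polycomb group gene, Psc, had 3 sites in the gap to its left. The strongest of them lay 7785 bp from Psc and 2500 bp from CG13321 on the other side. Its signal was 180 in replicate 1 and 228 in replicate 2 (204 ± 34.2). The others had pooled signals of 194 and 173. All 3 were in both own sets, but the weaker ones overlapped each other and had the same replicate 2 value, 92.7.

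The gap between lncRNA:CR44603 and lncRNA:CR45695 on arm 2L held 3 of the 20 strongest reproducible sites. Their pooled signals were 704, 565 and 400. The strongest was also the one of the 20 with the largest SD between replicates, 443 against 271 (357 ± 122), while the second gave 289 and 287 (288 ± 0.964). The site between COX7AL2 and CG31668 differed in the other direction, 253 in replicate 1 against 413 in replicate 2 (333 ± 113).

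Several strong sites lay close to genes of known function. The site between blw, which encodes a subunit of ATP synthase, and CycB, which encodes cyclin B, gave 320 and 326 (323 ± 4.27) in a gap of only 1340 bp. The site 3349 bp from foxo, a forkhead transcription factor of insulin signalling, gave 280 and 266 (273 ± 9.43). A site 821 bp from the cuticle protein gene Cpr76Ba gave 216 and 193 (205 ± 16.5). The site between RasGAP1 and CG10809 gave 174 and 241 (208 ± 47.1). The other named sites, with pooled signals of 329 to 461, gave values between 164 and 265 in each replicate. Of the 20, 7 lay more than 5000 bp from every start, 9 lay beside a lncRNA gene, and 14 had more A or T at the summit than in the flanks.

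Most intergenic sites were not far from a gene. The median distance to the nearest transcript start was 3020 bp, the middle 50% lay between 1326 and 6622 bp, and the farthest was 426661 bp away. Sites more than 5000 bp from every start numbered 150, or 32.4%, whereas 55.2% of the intergenic sequence open to the rule lay that far. For more than 10000 bp the values were 61 sites, or 13.2%, against 35.7% of sequence. Open sequence here means every base on the 4 arms outside genes and more than 500 bp from a start, 30.9 Mb in all, which gave 15.0 sites per Mb. Distance went with little difference in strength: the median pooled signal was 95.7 beyond 5000 bp and 100 within it, and 39.3% against 45.7% were in both own sets. At the edge of the rule, the 6 nearest sites lay 514 to 538 bp from a start with signals of 62.7 to 411, and the 6 peaks just left out, also outside genes, lay at 483 to 500 bp with 90.1 to 164.

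Site density fell with the length of the gap between genes. Gaps of up to 5000 bp held 111 sites at 29.3 per Mb of open sequence, gaps of 10000 to 20000 bp held 140 at 20.3 per Mb, and gaps over 50000 bp held 22 at 2.65 per Mb. The longest class made up 26.8% of open sequence but 4.75% of sites. How well reads map in these gaps was not tested. Annotated transposable elements held 3 sites (0.648%) but covered 10.5% of open sequence.

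The arms differed as well. Arm 3L carried 168 sites, or 18.5 per Mb, arm 2L carried 118 (17.6 per Mb), arm 3R 104 (13.6 per Mb) and arm 2R 73 (9.80 per Mb). On 2R the first site lay at position 6500495. Median signals were close, from 95.4 on 2L to 100 on 2R, and between 40.4% and 49.3% of each arm's sites were in both own sets.

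The orientation of the flanking genes set the sites apart little. Between genes on the same strand lay 50.3% of sites against 50.6% of open sequence. Between divergent genes the values were 23.8% against 20.5%, and between convergent genes 25.5% against 25.2%.

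The nearest gene was protein-coding for 305 sites, or 65.9% (61.4 to 70.2%), against 71.4% of open sequence. For 144 sites, or 31.1% (26.9 to 35.5%), it was a long noncoding RNA (lncRNA) gene, against 22.8%. Transfer RNA genes were nearest for 9 sites, or 1.94%, against 0.750%. Counting either side, 231 sites (49.9%) had a lncRNA gene as a direct neighbour, against 39.4% of open sequence, and 209 (45.1%) lay between protein-coding genes on both sides, against 48.0%.

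Sites often shared a gap. Of 5426 gaps with open sequence, 330 (6.08%) held a site and 88 held more than 1, and these 88 held 221 of the 463 sites (47.7%). Gaps with a site had a median length of 9032 bp, against 1700 bp for all gaps. Longer gaps hold more open sequence in which a site can fall, so these medians show no preference for long gaps. On an arm, 68 of 459 neighbouring pairs were less than 2000 bp apart. These counts include the 16 weak sites above, of which 15 overlapped a stronger site with a summit 199 to 232 bp away. Without the 16, 195 of 447 sites (43.6%) shared a gap.

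The gap between lncRNA:CR44363 and CG7560 on 3L held the most, 7 sites within 10429 bp. Their pooled signals ran from 56.7 to 365, and 5 were in both own sets. The gap between tRNA:Ile-TAT-1-2 and CG13898 held 6, of which 5 were in both own sets, led by the site of 461. Of the 5 sites between lncRNA:CR44603 and lncRNA:CR45695, 4 were in both. The gap between NijA, which encodes a ninjurin cell surface protein, and CG43245 also held 5, of 120 to 353. The gap right of scyl, an inhibitor of TOR signalling, held 5 sites of 70.1 to 222.

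**Figure D3:**
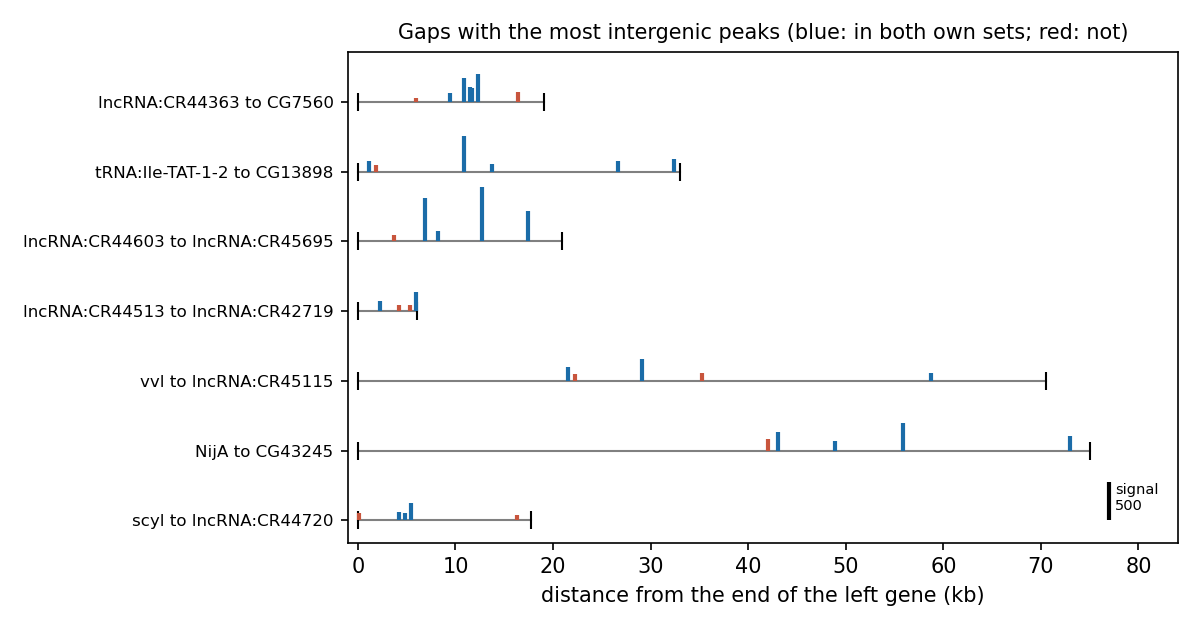
Positions of intergenic sites in the 7 gaps with the most sites, as distance in kb from the end of the left gene. Ticks mark the ends of each gap, and bar height is pooled signal with a scale bar of 500. Blue sites were in both own sets, red ones were not, and the tallest bar is the site of 704 in the gap of lncRNA:CR44603.

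Several lists of developmental genes had more sites for their open sequence than the 15.0 per Mb of all open sequence. That total includes gaps over 50000 bp, at 2.65 per Mb, and the lists were not matched for gap length. Of all 7714 genes with open sequence beside them, 623 (8.08%) had a site as a direct neighbour. Of the 21 segmentation genes with open sequence beside them, 9 had a site (ems, ftz, kni, odd, opa, ptc, slp1, slp2 and wg), with 12 sites at 27.9 per Mb and 5 in both own sets. The site between slp1 and slp2, paired forkhead genes of segmentation, had a signal of 124 in replicate 1 and 141 in replicate 2. A site 5291 bp from ptc, the Hedgehog receptor gene, gave 103 and 137. The gap of wg, a Wnt ligand gene, and Wnt4 held sites with pooled signals of 154 and 100.

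Of 16 dorsoventral and mesoderm genes with open sequence, 4 had a site (Doc1, Doc2, how and mid), with 8 sites at 58.6 per Mb, of which 6 were in both own sets. All these lists cover little sequence, here 0.136 Mb. The T-box gene Doc2 accounted for 5. The strongest, 6632 bp from Doc2, gave 163 in replicate 1 and 130 in replicate 2. Another of the 5 was among the 16 weak sites above, with a pooled signal of 3.53.

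Of 23 nervous system genes, 3 had a site (lola, nerfin-1 and vvl), 8 sites in all at 34.4 per Mb. The POU homeobox gene vvl, which is also in the tracheal and epidermal list, had 5 sites in a gap of 70507 bp, and the strongest gave 141 and 142. In the tracheal and epidermal list only vvl and knrl of 10 genes had sites, 6 in all at 32.8 per Mb. Of 13 gut, gonad and limb genes, 5 had a site, at 25.9 per Mb, led by the site beside the LIM homeobox gene tup at 73.3 and 59.3. Of 11 muscle genes, Act87E and lmd had 1 site each, together 44.2 per Mb, and the site 141 bp from the actin gene Act87E gave 60.2 and 71.4.

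The remaining lists differed in density. The 8 Hox genes, the 11 Notch pathway genes and the 35 cytoplasmic ribosomal protein genes with open sequence had 0 sites. Their open sequence was 0.0546, 0.0475 and 0.428 Mb in turn. For the Hox and Notch lists that is too little sequence to read 0 sites as a low density. Odorant and gustatory receptor genes had 9 sites at 11.3 per Mb, and cuticle protein genes 2 at 9.06. Of 48 cell adhesion and axon guidance genes with open sequence, 10 (20.8%) had a site, above the 8.08% of all genes. By density the list did not stand out, with 13 sites at 14.5 per Mb, close to the 15.0 of all open sequence. The strongest of these, 9956 bp from dpr17, gave 162 and 137. Genes for tRNA had 15 sites at 33.0 per Mb, of which 11 were in both own sets. The gap between tRNA:Ile-TAT-1-2 and CG13898 alone held 6 of the 15, with 5 in both own sets. Of 76 tRNA genes with open sequence, 8 (10.5%) had a site, near the 8.08% of all genes.

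A or T bases were more frequent at the summits than beside them. Over the 463 sites, 63.9% ± 10.4 (SD over sites) of the bases in the 101-bp summit windows were A or T, against 58.5% in windows centred 500 bp to each side. The difference was 5.40 points ± 13.2 (SD over sites), and 314 sites (67.8%) were above their flanks. All open intergenic sequence was 59.3% A or T. The difference was larger in promoter peaks, 12.4 points, whose flanks were poorer in A or T at 54.3%, and 6.93 points in peaks inside genes. In 51-bp windows the mean over sites was 63.6% at the summit and fell to 56.0% and 55.5% at 200 bp to either side, below the level farther out.

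The difference was not the same at all strengths. It was 8.41 points in the strongest quintile, 9.05 in the second, 6.79 in the third and 5.11 in the fourth. In the weakest quintile it was -2.33 points, and -1.12 points over the 77 of its sites with signals of 30 or more. Peaks inside genes showed -1.11 points in their weakest quintile, and promoter peaks 5.11. Runs of 12 or more A or T bases were present in 138 summit windows (29.8%), in 16.8% of flank windows and in 19.9% of windows tiled through open sequence.

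**Figure D4:**
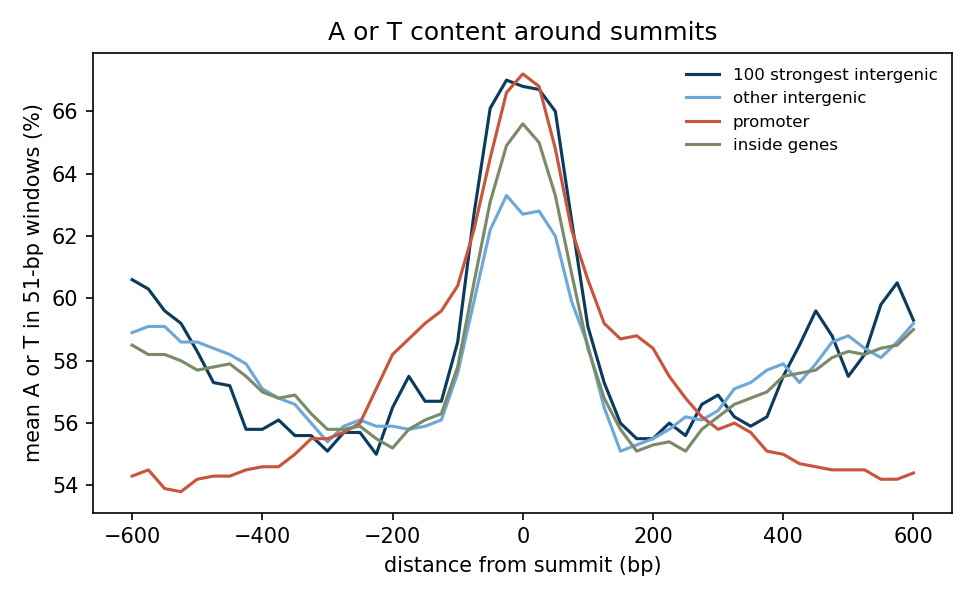
Mean percentage of A or T bases in 51-bp windows against distance from the summit in bp, for the 100 strongest intergenic sites, the other intergenic sites, promoter peaks and peaks inside genes. The 100 strongest intergenic sites reached 66.8% at the summit and the others 62.7%.

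Of 24 motifs searched on both strands of the summit windows, 4 were present in at least 5 sites and at more than 2 times their share in the flanks. The CTCF core AGNNGGCGC was in 18 sites, or 3.89% (95% exact interval 2.32 to 6.07%), against 0.756% of flank windows and 0.619% of all open windows of the same length. It was in 9 of the 100 strongest sites, and 14 of the 18 were in both own sets. Promoter peaks held it in 1.32% and peaks inside genes in 2.08%. AGATGGCG, taken from an earlier analysis of these data, was in 9 sites (1.94%) against 0.108% of flank windows and 0.260% of open windows. All 9 were in both own sets, and 7 of them also held the CTCF core, which it can overlap. The others were rich in A and T. TATATTAA, also from the earlier analysis, was in 12 sites (2.59% against 0.864% of flanks and 1.21% of open windows). The repeat ATATATAT was in 17 (3.67% against 1.40% and 1.52%). AGATGGCG and TATATTAA came from these same data, so their excess over flanks is not separate support. All 24 motifs, the CTCF core among them, were chosen with earlier results of these data known. The excess of the core is therefore a description and not independent support either.

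Sites with the CTCF core or AGATGGCG numbered 20, a group partly defined from these same data. Their median pooled signal was 147 against 97.1 for the other 443, and 16 of them (80.0%) against 42.0% were in both own sets. Their summits were 55.7% A or T and their flanks 59.2%, against 64.3% and 58.5% for the others. The GC-rich motif is itself counted in the first of these values, and how much of the difference it makes up was not tested. The strongest was the site between soti and cv-c shown above, 241 bp from cv-c, with a signal of 162 in replicate 1 and 145 in replicate 2. The site between Sid and snu gave 134 and 119, and the site between Sox21a and Sox21b gave 93.6 and 88.9. The strongest site with ATATATAT was the one beside tRNA:Ile-TAT-1-2, and the strongest with TATATTAA was the one left of Psc.

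CACTGAGA and GGCGCC, chosen after the data were seen, are likewise given without support. CACTGAGA was in 15 sites (3.24%) against 0.108% of flank windows and 0.322% of open windows, in 1.63% of peaks inside genes and in 0.545% of promoter peaks. These sites were mostly weak, with a median pooled signal of 90.2, and 2 of the 15 were in both own sets. Those 2 also held the CTCF core. GGCGCC was in 12 sites (2.59%) against 1.08% of flank windows and 1.13% of open windows, among them the site between C15 and sp3. Of the 12, 8 also held the CTCF core, which GGCGCC can overlap.

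Of the promoter motifs, DRE was not found at the summits and the TATA box sequence was the most frequent of all motifs searched. The DNA replication-related element TATCGATA (DRE) was in 0 of 463 summit windows, which allows a share of up to 0.648% at 3 counts (the exact interval shown in the plot of motif shares reaches 0.794%), and in 0.324% of flank windows, while 2.10% of promoter peaks held it. The TATA box sequence TATAAA was in 80 sites, or 17.3% (13.9 to 21.0%), against 10.4% of flanks and 12.6% of open windows, in windows that were richer in A and T. It was in 15 of the 100 strongest sites. The GAGA factor motif GAGAGAG was in 3 sites (0.648%) against 2.27% of flanks, and CACACACA in 5 (1.08%) against 2.48%. The homeodomain sequence TAATTA was in 7.13% of sites against 5.40% of flanks and 7.45% of open windows, and the Zelda motif CAGGTAG in 0.648% against 0.540% and 0.435%. The other 14 motifs were in 0 sites (the Tcf motif CATCAAAG) to 43 sites (CGATA, part of the BEAF-32 motif, 9.29% against 9.72% of flanks), and none of them reached 5 sites at more than 2 times their share in the flanks. A match names letters in a window, not a bound factor.

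**Figure D5:**
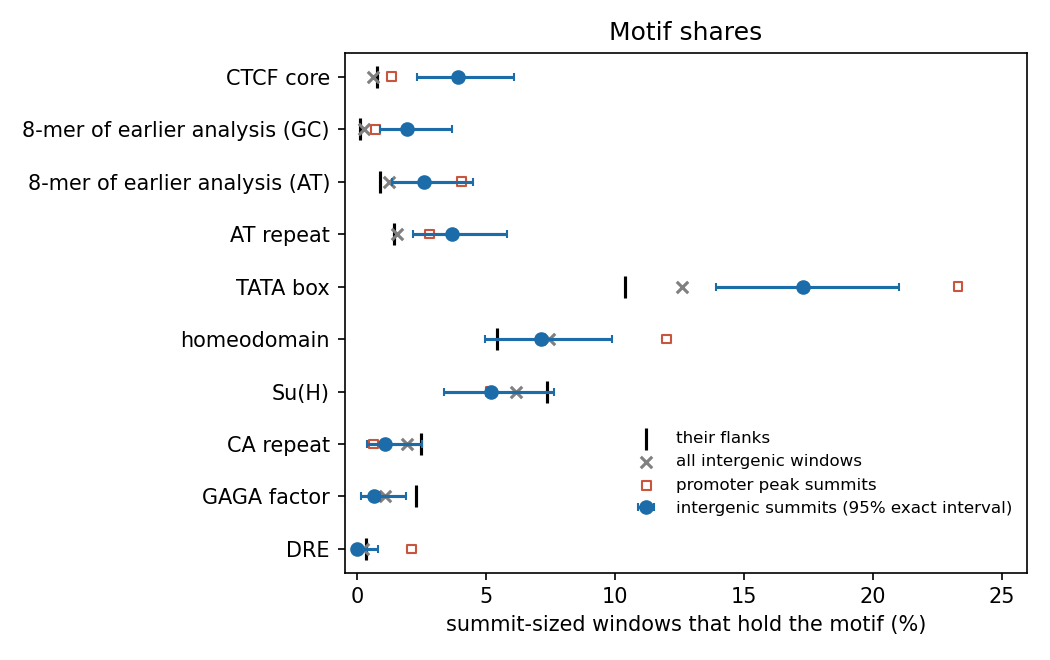
Percentage of 101-bp windows that hold each of 10 motifs, for intergenic summits with 95% exact intervals, their flanks, all windows tiled through open intergenic sequence, and promoter peak summits. The CTCF core stands at 3.89% of intergenic summits against 0.756% of flanks, and DRE at 0 against 2.10% of promoter peaks.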

How the data were processed

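Per the labels, ChIP-seq was run on 2 biological replicates of 1 group and the files use the dm6 assembly. The aligner and peak caller are not given in the sources used here, and read depth is unknown, so no interval on a signal is given. The authors deposited peak lists with a signal value per peak, used as deposited to rank and describe peaks: 1 thresholded and 1 ranked list per replicate, and pooled thresholded, conservative and ranked lists whose names record a threshold on the irreproducible discovery rate. The authors' pooled ranked list also gives a −log10 value per peak, at 2.00 or more for every kept peak. In the 2 pooled ranked lists 16 unnamed value columns were not used.

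From these, summits were placed in genes of Ensembl release 115 without transposable elements, overlap needed 1 bp, and sequences came from the RefSeq dm6 genome. Windows were 101 bp, flanks were centred 500 bp away, and intervals were exact Clopper-Pearson at 95%. There was no condition to test, so no p-value is given. Named sites were the 20 strongest found in both own sets, the strongest of each gene list and motif, and the fullest gaps; the sites beside wg, ptc, Sid and Sox21a and the other GC-rich windows printed were named after their values were seen. The members, 14 gene lists and 24 motifs were chosen with earlier results of these data known. The class rule, the overlap and the motif search were tested on simulated data. Alternatives were other peak sets, each replicate alone, other distances, annotations and windows. Python 3.11.15, pandas 2.3.3, scipy 1.17.1 and matplotlib 3.10.9 were used.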

Additional observations from a re-analysis of the deposited data

Results flagged for a closer look

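The authors' pooled ranked list held 7 intergenic autosomal peaks that passed the same threshold as the kept peaks but were not in the thresholded set, so they entered no comparison above. They were noted because their signals, 122 to 596 with a median of 188, were above the median of the kept sites. The strongest, 596, lay between lncRNA:CR45643 and tara at 3R position 16224514, beyond the lncRNA gene that borders the strongest kept site. Of the others, 3 lay beside Rh5, with 257, 217 and 142, and 1, with 188, lay in the gap between COX7AL2 and CG31668 that also held 2 kept sites. None of the 7 overlapped a kept peak. The control library was not analysed here, and why they were left out was not tested.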

How the results depend on the processing

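Of 93 alternative values for 10 results, 66 stayed near the main value and 27 moved beyond the set range, and the direction of the A or T difference held in each. With the stronger 50% of autosomal peaks the number of sites was 195, their share of peaks 13.7%, the share in both own sets 87.7%, the signal ratio to promoter peaks 0.836, the A or T difference 8.61 points, the share with a protein-coding nearest gene 70.3%, the share in a shared gap 29.2% and that with the CTCF core 6.15%. In the replicates' own sets the number was 277 to 290, the share of peaks 14.9 to 15.3%, the ratio 0.823 to 0.840, the A or T difference 6.42 to 7.45 points and the share in a shared gap 36.5 to 46.2%; the protein-coding share was 65.5 to 66.8%, the CTCF core 4.69 to 4.83%, DRE 0 and the TATA box sequence 18.1 to 19.7%. With 1000 bp from starts the share of peaks was 13.5% and the ratio 0.811. With protein-coding genes only they were 19.5% and 0.767, and the share in a shared gap was 57.9%. The conservative set gave a ratio of 0.757 and an A or T difference of 6.81 points. Windows of 100 bp to each side gave 3.75 points and 30.5% with the TATA box sequence. Requiring an overlap of 50% of both peaks left 36.7% in both own sets. Counting transposable elements as genes, an alternative chosen after seeing the data, gave 59.6% with a protein-coding nearest gene. The causes were not tested. Leaving out the 16 weak sites was also chosen after seeing the data. No paired analysis was possible because there was 1 group. Only 2 replicates limit every SD.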

Other observations

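Intergenic sites were unevenly spread along the arms. The first Mb of 3L held 27 sites in 0.308 Mb of open sequence, and the stretch from 11 to 12 Mb of the same arm held 24 in 0.260 Mb. On 2L the fullest stretches were 1 to 2 Mb and 14 to 15 Mb, with 18 sites each.

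Sites were nearer to promoter peaks and to peaks inside genes than open sequence as a whole. A promoter peak lay within 5000 bp of 57 sites (12.3%), while 3.03% of open sequence was that close to one, and a peak inside a gene lay within 5000 bp of 25 sites (5.40%) against 1.09% of open sequence.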
